A study of Danio rerio with 8 samples.

Results

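Transcript levels of tgm1l4, elovl7a, anxa1a and rhcgl1, grouped here as epidermis and ionocyte genes, were examined in whole zebrafish embryos. They were chosen by symbol and are 4 of the 1293 genes in the deposited table, 1 row each. RNA came from 8 pools of whole embryos at 53 hours post fertilisation. Of these, 4 pools were wild-type and 4 were iqgap1-/- pools in which the embryos had been chosen for hemorrhage. Each pool held 20 embryos by the design text, although the labels' extraction protocol mentions single larvae. No treatment is named in the labels, and wild-type embryos with hemorrhage were not part of the comparison, so that the mutation and the bleeding cannot be told apart. The sources used here do not give the type of iqgap1 allele.

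The zebrafish embryo is covered by an outer layer of flattened cells, the periderm, over a layer of basal keratinocytes. Ionocytes are scattered in this skin and move salt, acid and ammonia between the body and the water before the gills take over. Transglutaminases join proteins by bonds between glutamine and lysine side chains, and in human skin the family member TGM1 builds the tough envelope of the outermost cells. ELOVL enzymes lengthen fatty acids in the endoplasmic reticulum, some of which enter the lipids of the skin barrier. Annexins bind membrane phospholipids when calcium is present, and Rh glycoproteins are channels for ammonia.

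The table holds genes that had passed the authors' own selection, with an adjusted p no higher than 0.05 and a fold change above 1.5, so each of the 4 genes had been selected on this same contrast. The listed genes together had 354262 to 552323 expected counts per pool, a sum that says nothing of library depth. The iqgap1 transcript, which encodes a scaffold of the actin cytoskeleton, lay between 2112 and 2223 normalized counts in the wild-type pools and between 912 and 1245 in the mutant pools, so it was lower but present. The table holds 1293 of the 26889 genes the authors adjusted over, a share to set beside every count of listed symbols here and below. Of 12 defining epidermis markers 1 was in the table (anxa1a itself), and of 10 defining ionocyte markers 0. The label could therefore not be checked against other markers, and the genes are called by their symbols below. In whole embryos, fewer cells of a type and less RNA per cell cannot be told apart.

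Of the 4 genes, tgm1l4 and elovl7a rose in the mutants, anxa1a fell, and rhcgl1 had too few counts for the test across genes. The edgeR quasi-likelihood test called 3 of the 3 genes tested at an adjusted p under 0.05. Among all 1126 listed genes tested, 66.7% were called, 37.3% as higher and 29.4% as lower, so that a call alone does not set these genes apart from the rest of the table. The groups did not overlap for any of the 4 genes, which was also so for 89.5% of all listed genes and 90.6% of those tested. A normalized count is the expected count divided by a size factor of the pool; it is not divided by gene length, so levels are compared between pools and not between genes.

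**Figure D1:**
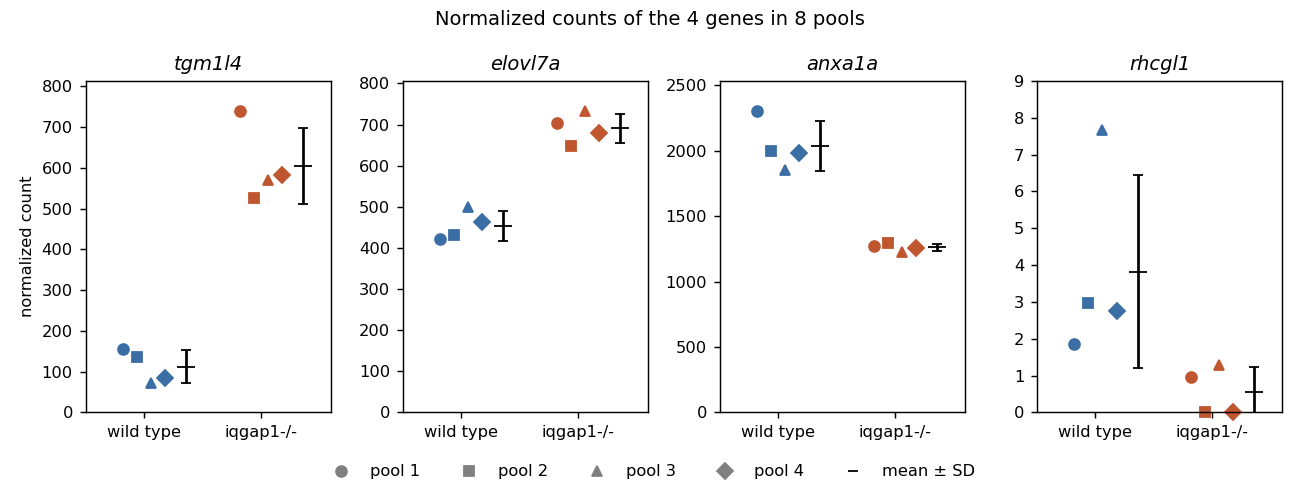
Normalized counts of tgm1l4, elovl7a, anxa1a and rhcgl1 in 4 wild-type and 4 iqgap1-/- pools, with a separate vertical axis from 0 for each gene; symbols mark the pool number and bars the mean ± SD (n = 4). The mutant pools lie above every wild-type pool for tgm1l4 and elovl7a and below every wild-type pool for anxa1a and rhcgl1, where the mutant pools have 0 to 1.29 normalized counts.

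The transglutaminase gene tgm1l4 (ENSDARG00000101407) had the largest change of the 3 tested genes. Its normalized counts were 155, 136, 71.6 and 84.7 in wild-type pools 1 to 4 and 739, 526, 569 and 582 in mutant pools 1 to 4. Every mutant pool was thus far above every wild-type pool, mutant pool 1 was the highest, and wild-type pools 1 and 2 lay above wild-type pools 3 and 4. The mean was 112 ± 40.1 in wild-type and 604 ± 93.1 in mutant pools (SD, n = 4 per group). This is a 5.41-fold rise, 2.43 ± 0.24 (SE) as a log2 fold change with an adjusted p of 0.000317 by edgeR. In the authors' deposited table the log2 fold change is 2.43, and 77 listed genes have a larger rise.

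The spread of tgm1l4 among wild-type pools was large for this table. Its coefficient of variation, the SD as a percentage of the mean, was 35.9% in wild type, above that of 92.2% of the 653 listed genes that averaged at least 50 normalized counts, whose median was 14.3%. In the mutants it was 15.4%, close to the median of 14.0%. Leaving out each pool in turn, with the size factors of the full set of pools kept, moved the log2 fold change. It lay between 2.27, without wild-type pool 3, and 2.64, without wild-type pool 1. The adjusted p then reached 0.00194 at most (edgeR quasi-likelihood test).

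The elongase gene elovl7a (ENSDARG00000069279), whose human counterpart lengthens saturated and other long fatty acids, had a smaller and more even rise. Its normalized counts were 421, 430, 500 and 462 in wild-type pools 1 to 4 and 703, 649, 733 and 679 in mutant pools 1 to 4. All mutant pools were higher than the highest wild-type pool, and pool 3 was the highest in both groups. The mean went from 453 ± 35.5 to 691 ± 35.7 (SD, n = 4 per group), or 0.61 ± 0.10 (SE) as a log2 fold change with an adjusted p of 0.00780 by edgeR. Of the listed genes 743 have a larger rise in the authors' deposited table, where its log2 fold change is 0.61, near the threshold for listing.

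The rise of elovl7a depended on the scale between the groups. That scale was set from the authors' fold changes, because the genes outside the table were not analysed here. With size factors by RLE from the listed genes alone its log2 fold change was 0.09 ± 0.13 (adjusted p = 1), and with TMM over the listed genes 0.22 ± 0.12 (adjusted p = 1; edgeR quasi-likelihood test in both). Before any offset between the groups it was 0.38 ± 0.10 (adjusted p = 0.128). The same alternatives left tgm1l4 at 1.94, 2.06 and 2.203 and anxa1a at -1.201, -1.07 and -0.92 on the log2 scale, all of them called. RLE and TMM take most genes to be unchanged, whereas this table holds only genes the authors listed as higher (761) or lower (532). Without the offset, sequencing depth is not corrected between the groups. Here and below, these scalings show how far an estimate moves with the scale. They cannot decide whether a listed gene rose or fell.

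**Figure D2:**
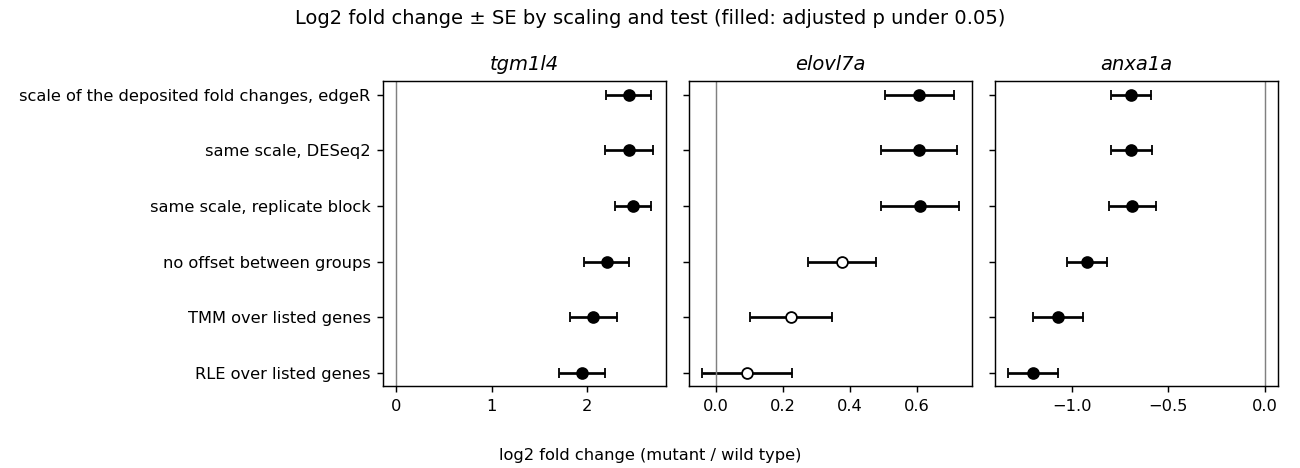
Log2 fold change of mutant over wild type ± SE for tgm1l4, elovl7a and anxa1a under 6 combinations of scaling and test; filled points have an adjusted p under 0.05. The elovl7a estimate moves from 0.61 to 0.09 with the scaling and loses its call under 3 of the scalings, while tgm1l4 stays above 1.9 and anxa1a below -0.6.

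The annexin gene anxa1a (ENSDARG00000026726) was the gene with a called fall. Its mammalian counterpart is a target of glucocorticoid hormones and limits the entry of neutrophils into inflamed tissue. Normalized counts of anxa1a were 2303, 2000, 1857 and 1984 in wild-type pools 1 to 4 and 1272, 1295, 1223 and 1253 in mutant pools 1 to 4. The mutant pools were close to one another and all lay below the lowest wild-type pool, while wild-type pool 1 was the highest. The mean fell from 2036 ± 189 to 1261 ± 30.4 (SD, n = 4 per group), which is 1.61-fold lower and -0.69 ± 0.10 (SE) as a log2 fold change, with an adjusted p of 0.00410 by edgeR. Its coefficient of variation was 2.41% among mutant pools and 9.30% in wild type. Among mutant pools 0.612% of the same 653 genes had a lower one. Counting error is larger in genes with fewer counts, and 4 pools measure a spread poorly. The rank therefore does not show that anxa1a is unusually even.

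Blood cell markers were examined beside these genes, since annexin A1 is also made by leukocytes in mammals; like the members, those in the table had been selected on this contrast. Of 20 neutrophil symbols 8 were in the table, 7 called as higher and 1, cyba, as lower, with a summed level of 2977 to 3251 normalized counts in the wild-type pools and 5279 to 6617 in the mutant pools. The 7 were mpx, lyz, npsn, lect2l, mmp9, cpa5 and cebpb. Expression of these genes in other cells was not tested, so the sum need not come from neutrophils alone. Of 23 macrophage symbols 8 were in the table, all lower, and 5 of them were called. Most of their sum came from apoeb, which other tissues also express, and without it the other 7 summed to 429 to 537 in wild type and 195 to 267 in the mutants. Of 27 erythrocyte symbols 22 were in the table, all higher and 20 called, with sums of 53303 to 87480 and 165828 to 215412. Over all 1126 listed genes tested, 66.7% were called, 37.3% as higher and 29.4% as lower. Of the listed markers of these cell types 0 were absent from all pools, and their part in the levels of tgm1l4, elovl7a and anxa1a was not tested.

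The gene rhcgl1 (ENSDARG00000007080) encodes an Rh glycoprotein; its relative rhcgb works in zebrafish ionocytes that pump acid. It was removed by the count filter and is too low to test in the fit. Its expected counts were 2, 3, 9 and 3 in wild-type pools 1 to 4 and 1, 0, 1 and 0 in mutant pools 1 to 4. Wild-type pool 3 held 9 of the 17 wild-type reads, and the lowest wild-type pool and the highest mutant pool differ by 1 read. Together with the 2 mutant reads these give a ratio of mutant over wild type of 0.138 after scaling, with an exact 95% interval of 0.0154 to 0.579 that covers counting error only. Without wild-type pool 3 the ratio was 0.213 and its interval, 0.0221 to 1.07, included equal levels.

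On log2(normalized count + 1), rhcgl1 differed by -1.59 between the groups, with an exact two-sided permutation p of 0.0286, the smallest that 4 against 4 pools can give. The value is not corrected for the choice of this gene from the table. Without wild-type pool 3, mutant pool 2 or mutant pool 4, p was 0.0571 (exact permutation test on the absolute difference in means). Fitted without the count filter, its log2 fold change was -2.60 ± 0.85 with an adjusted p of 0.227 (edgeR quasi-likelihood test), and DESeq2 gave -2.83 ± 1.33 with an adjusted p of 0.698. The authors' deposited table gives -2.59 with an adjusted p of 0.0398. Before adjustment, p was 0.0108 in this edgeR quasi-likelihood test and 0.0334 with DESeq2. The adjustment took all genes outside the table as unchanged, which can only raise an adjusted p. The difference thus had no call in the fits run here, whereas the authors' own adjusted p was under 0.05.

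Reads that fit several genes are split by RSEM, which leaves fractions in the expected counts. The expected counts of tgm1l4, elovl7a, anxa1a and rhcgl1 were whole numbers in 8 of 8 pools each, to the step of 0.01 at which RSEM prints them. This was so for 45.4% of the listed genes. For tgm1l4, elovl7a and anxa1a the values therefore show no splitting of reads with related genes such as the other tgm1-like or anxa1 genes. With 0 to 9 counts per pool, rhcgl1 had too few reads for this check to tell. Reads that RSEM assigned wholly to 1 gene are not seen this way.

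The genes tgm1l4, elovl7a and anxa1a were each set beside a relative of their family in the table and beside one another, by the ratio of counts within a pool, which does not depend on any scale between pools; rhcgl1 was left out for its low counts. The pairs were chosen after the values were seen, and 6 ratios were compared by exact two-sided permutation tests with Benjamini-Hochberg adjustment over the 6. All 6 exact permutation tests gave p = 0.0286, the smallest that 4 against 4 pools allow. Because all 6 were equal, the adjustment left them unchanged. Of these, 3 set anxa1a, listed as lower, against a gene listed as higher, so that their direction was fixed by the selection.

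Of 15 symbols in the transglutaminase family list, tgm1l4 and tgm1 were in the table. The gene tgm1 rose from 97.0 ± 5.72 to 202 ± 10.6 normalized counts (n = 4 per group, SD), with a log2 fold change of 1.06 ± 0.11 (SE) and an edgeR adjusted p of 0.000505. With RLE size factors tgm1 was at 0.55 and not called (adjusted p = 0.0697). The ratio of tgm1l4 to tgm1 counts was 1.55, 1.52, 0.70 and 0.885 in wild-type pools 1 to 4 and 3.54, 2.57, 2.73 and 3.12 in mutant pools 1 to 4. Every mutant pool had the higher ratio, and tgm1l4 rose 2.7-fold more than tgm1 did (exact permutation test, adjusted p = 0.0286). This pair was chosen after the values were seen, and the p is the smallest that 4 against 4 pools allow. The division of the wild-type pools seen for tgm1l4 was not present in tgm1, whose wild-type coefficient of variation was 5.90%.

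Of 12 symbols in the elongase list, elovl7a and elovl7b were in the table, the same pair as for the barrier lipid list of 40 symbols. The gene elovl7b (ENSDARG00000100185) rose from 200 ± 18.7 to 392 ± 67.9 normalized counts (SD, n = 4 per group), with a log2 fold change of 0.97 ± 0.14 (SE) and an edgeR adjusted p of 0.00358. It was not called with RLE (0.46, adjusted p = 0.754) or TMM (0.59, adjusted p = 0.145). The ratio of elovl7a to elovl7b counts was 2.21, 2.41, 2.30 and 2.15 in wild-type pools 1 to 4 and 1.55, 1.84, 1.65 and 2.15 in mutant pools 1 to 4. Mutant pool 4 lay just under the lowest wild-type pool, at 2.151 against 2.155. The ratio was 1.27-fold lower in the mutants (exact permutation test, adjusted p = 0.0286), so elovl7b rose more than elovl7a. This pair too was chosen after the values were seen, and the p is the smallest that 4 against 4 pools allow. The call of this ratio was lost without any 1 of the 4 wild-type pools (adjusted p = 0.0571 each, exact permutation test on the absolute difference in means).

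Of 17 annexin symbols, anxa1a and anxa3a were in the table, and they moved in opposite directions. The gene anxa3a rose from 474 ± 13.7 to 1001 ± 64.6 normalized counts (SD, n = 4 per group), with a log2 fold change of 1.08 ± 0.10 (SE) and an edgeR adjusted p of 0.000219. The ratio of anxa1a to anxa3a counts was 4.69, 4.17, 4.03 and 4.27 in wild-type pools 1 to 4 and 1.2, 1.42, 1.22 and 1.22 in mutant pools 1 to 4. It was 3.40-fold lower in the mutants (exact permutation test, adjusted p = 0.0286), and the groups lay far apart. The direction of this difference was fixed by the selection, and the pair was chosen after the values were seen. This p is also the smallest that 4 against 4 pools allow.

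**Figure D3:**
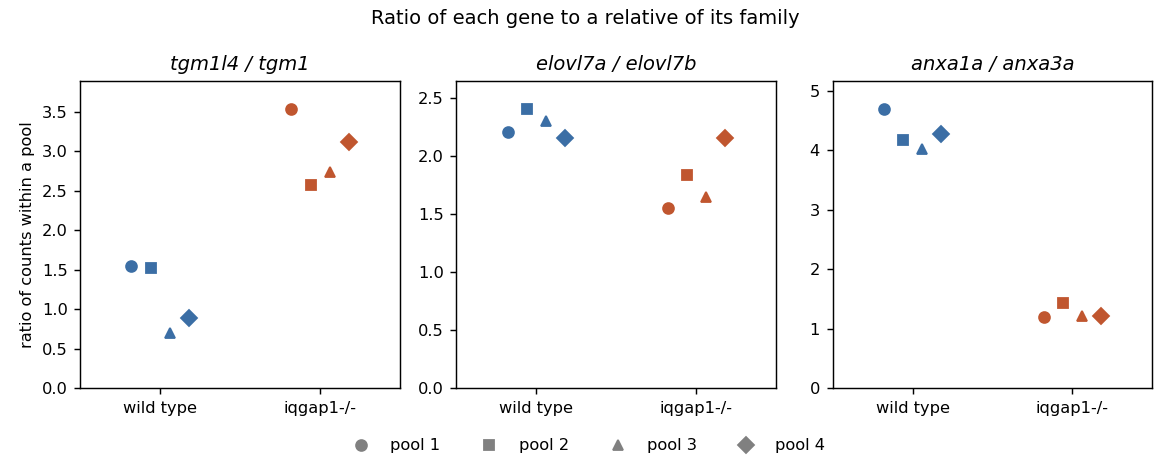
Ratio of the counts of tgm1l4 to tgm1, elovl7a to elovl7b and anxa1a to anxa3a within each of the 8 pools, on axes from 0; counts are not divided by gene length, so only differences between pools carry meaning. The mutant pools lie higher for the transglutaminases (2.57 to 3.54 against 0.70 to 1.55) and lower for the annexins (1.2 to 1.42 against 4.03 to 4.69), and for the elongases mutant pool 4 lies just under the lowest wild-type pool.

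Of 7 Rh family symbols 3 were in the table. The gene rhag, whose protein sits in the red cell membrane, rose by a log2 fold change of 0.61 ± 0.10 (adjusted p = 0.00638), and rhd, a blood group gene homolog, by 1.58 ± 0.19 (adjusted p = 0.000969; SE, edgeR quasi-likelihood test in both). With RLE, TMM and no offset rhag was not called (0.10, 0.23 and 0.38). The gene rhcgl1 was thus the one Rh gene listed as lower. Of 60 ionocyte symbols 1 was in the table, rhcgl1 itself, and of 13 mucous and goblet cell symbols 0.

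The table held 8 of 84 epidermis symbols, beside 1293 of the 26889 genes the authors adjusted over. All 8 were called, 6 as higher and 2 as lower in the mutants, beside 66.7% of all listed genes tested. The 8 include tgm1l4, elovl7a and anxa1a, so these counts and the median below partly restate those genes. Their median log2 fold change was 0.87, against 0.70 over all listed genes tested, of which 420 were called higher and 331 lower. The other 3 members of this list not yet described were klf4, abcb5 and gsta.1. The transcription factor gene klf4, needed for the skin barrier in mice, rose from 47.8 ± 8.25 to 93.2 ± 3.79 normalized counts (n = 4 per group, SD), with a log2 fold change of 0.96 ± 0.16 (SE) and an edgeR adjusted p of 0.00759. The transporter gene abcb5 rose by 0.78 ± 0.13 (adjusted p = 0.00702) and gsta.1, a glutathione transferase gene, fell by 1.32 ± 0.13 on the log2 scale (adjusted p = 0.000318). The expected counts of abcb5 and gsta.1 were whole in 0 of 8 pools, so their values are uncertain where reads fit several genes. The rises of klf4 and abcb5 were not called with RLE (0.44 and 0.26) or TMM (0.57 and 0.40), and that of abcb5 was also lost with no offset (0.54). Of the 8 genes tested from the epidermis, barrier lipid and family lists beside tgm1l4, elovl7a and anxa1a, 3 had the same call with RLE, 4 with TMM and 6 with no offset.

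**Figure D4:**
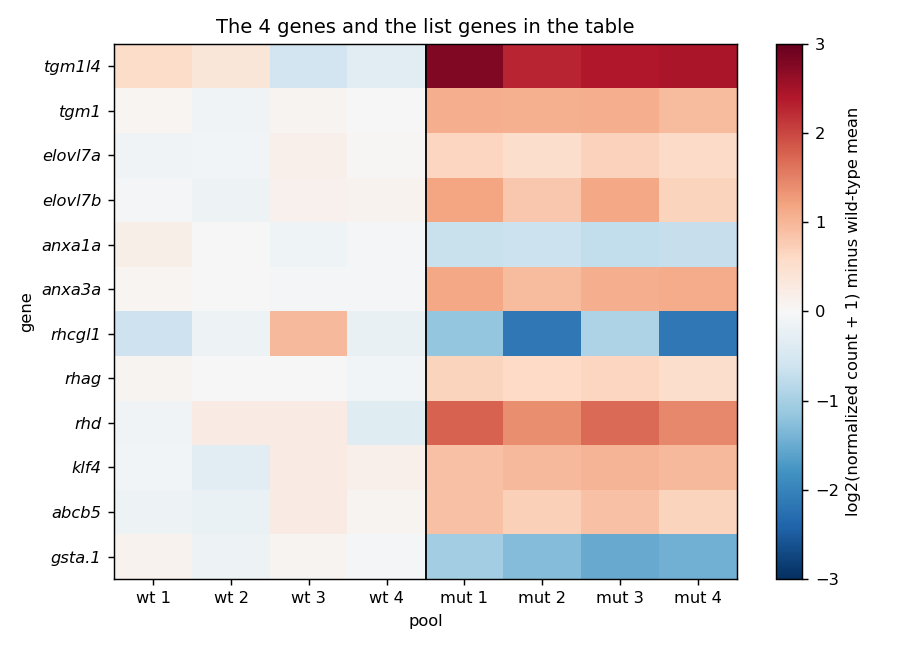
Heat map of log2(normalized count + 1) minus the wild-type mean of the gene, for tgm1l4, elovl7a, anxa1a, rhcgl1 and the 8 other list genes of the table (rows) in 8 pools (columns, wild type left of the line). The mutant pools are lower for anxa1a, rhcgl1 and gsta.1 and higher for the other 9 genes on this scale; tgm1l4 has the darkest red.

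Candidates for a like profile were 442 listed genes that averaged at least 50 normalized counts. Symbols with a colon or a clone prefix such as si or zgc were left out, which would also drop a named gene starting with si. The genes most alike in profile were sought among these 442, by the root mean square difference of centred log2 levels over the 8 pools. For tgm1l4 they were he1.1, a hatching enzyme gene, at 0.293, the forkhead gene foxq1a at 0.354 and the complement factor H-like gene cfhl2 at 0.357. The gene he1.1 had 1165, 1099, 849 and 754 normalized counts in wild-type pools 1 to 4 and 5200, 3238, 3395 and 4078 in mutant pools 1 to 4. It shared with tgm1l4 the higher level of wild-type pools 1 and 2 and of mutant pool 1. Wild-type pools 1 and 2 also both lay above the other wild-type pools in anxa1a, bag2, oxsm, cfb and rhag. In elovl7a, elovl7b, klf4, abcb5 and rp2 both lay below them. This split was thus not particular to tgm1l4 and he1.1, and its share over all listed genes was not counted. The expected counts of he1.1 and of cfhl2 were whole in 0 of 8 pools, so their values are uncertain where reads fit several genes. For elovl7a the closest were the nuclear receptor gene nr4a1 (0.0709), the metalloproteinase gene mmp30 (0.0781) and rp2 (0.0784). For anxa1a they were the co-chaperone gene bag2 (0.07), oxsm (0.0741), which encodes an enzyme of mitochondrial fatty acid synthesis, and the complement factor B gene cfb (0.0857). With rhcgl1 no gene was compared because of its low counts. The measure includes the difference between the groups, for which every listed gene had been selected, so close genes have similar fold changes. The log2 fold changes of he1.1, foxq1a and cfhl2 were 2.04, 2.21 and 2.12, beside 2.43 for tgm1l4. Those of nr4a1, mmp30 and rp2 were 0.61, 0.65 and 0.68, beside 0.61 for elovl7a. Those of bag2, oxsm and cfb were -0.67, -0.62 and -0.64, beside -0.69 for anxa1a.

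The genes next to each member were looked up in RefSeq's annotation of GRCz12tu, after the values were seen. The authors' build is danRer11, so only the order of protein-coding genes was used. Of the 8 adjacent genes, 2 were in the table. The gene btr31, next to tgm1l4, had 0.921 to 4.65 normalized counts in wild type and 10.4 to 11.7 in the mutants, or 2.11 ± 0.41 (SE) as a log2 fold change with an adjusted p of 0.0186 by edgeR. Its call was lost with a replicate block (adjusted p = 0.104), and leaving out each pool took the adjusted p to between 0.0185 and 0.0613. With RLE, TMM or no offset between the groups btr31 did not pass the count filter and was not tested. The gene kifl, next to anxa1a, was too low to test, with 4.65 to 11.0 normalized counts in wild type and 0 to 1.29 in the mutants. Expected counts were whole in 5 of 8 pools for btr31 and in 4 of 8 for kifl. The low values of both genes are therefore uncertain where reads fit several genes. An adjacent listed gene was thus present for 2 of the 4 genes, against 159 of the 790 listed genes matched by symbol (20.1%) and 5.69% of all protein-coding genes. The 790 are 61.1% of the listed genes, so some listed neighbours may be missed. An excess was not tested, and 4 genes are too few to show one.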

How the data were processed

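Whole-embryo RNA was sequenced from 4 wild-type and 4 iqgap1-/- pools after ribosomal RNA depletion with random priming, per the labels' protocols. Trimmomatic, STAR 2.7 and RSEM with the build danRer11 are listed in the submitters' processing notes. Per the file headers the deposited table gives the authors' log2 fold change with the linear ratio, and p-values before and after adjustment; the sources used here do not name their tool. Each deposited value per pool was an RSEM expected count multiplied by 1 of 8 factors between 0.978 and 1.03 in a cyclic order shifting from row to row. Division returned multiples of 0.01 for all 10152 nonzero values. The counts were rounded. The division and the edgeR fit were checked on simulated data. The rounding was not.

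Size factors were medians of ratios within each group over genes averaging at least 50 counts; a log2 offset of -0.23 between the groups matched the authors' fold changes. edgeR 4.0.16 (R 4.3.3; filterByExpr, minimum count 10, minimum total 15) tested 1126 genes and removed 167. P-values were adjusted over 26889 genes, the number the authors adjusted over, with p = 1 for the 25596 genes outside the table. This choice can only raise an adjusted p. Standard errors were derived from the F statistic. Alternatives were DESeq2 1.42.0, other scalings, no filter, a replicate block, each pool left out, adjustment over listed genes and a threshold of 0.01. Members and lists were chosen with earlier results of these data known. Named genes were the 4 members, the genes of the fixed lists in the table and the 3 most alike profiles; others were named after their values were seen. No 2 pools of a group agreed within sampling noise (chi-square per degree of freedom of at least 2.62). Nothing in the labels says that pools came from separate crosses, so p-values measure the spread between these pools.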

Additional observations from a re-analysis of the deposited data

Results flagged for a closer look

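The ratio of anxa1a to anxa3a counts in mutant pool 2 was 1.42, while the other mutant pools lay between 1.2 and 1.217. It was the 1 value of 36 comparisons over genes and ratios that stood apart from the other 3 pools of its group by Dixon's test, where chance gives about 1.8. All 4 mutant ratios were below the lowest wild-type ratio of 4.03.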

How the results depend on the processing

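The calls of tgm1l4 and anxa1a held in all 15 alternatives run for each, and the 3 members called were 2 with RLE, TMM or no offset between the groups. The call of elovl7a held in 12. It was lost at log2 fold changes of 0.093 with RLE, 0.22 with TMM and 0.38 with no offset between the groups. These alternatives change the scale by construction. Averaged over the pools, RLE shifts the groups by -0.52 and TMM by -0.39 on the log2 scale, and single genes move by slightly different amounts. Since RLE and TMM need mostly unchanged genes and the table has none to offer, and no offset leaves depth uncorrected, these lost calls do not decide the rise of elovl7a. No direction reversed among the members and ratios. Of 751 genes called, 420 were higher and 331 lower. Higher calls were 113 with RLE, 162 with TMM, 244 with no offset and 661 with adjustment over the listed genes alone; a threshold of 0.01 gave 436 calls, 250 higher and 186 lower. Lower calls were 465 with RLE. With each pool left out, calls ranged from 535 to 804, higher calls from 303 to 483 and lower calls from 231 to 321. These fits kept the size factors and the offset from the full set of pools. Their ranges therefore leave out any change of the scale between the groups. With each pool left out on this fixed scale, the log2 fold changes ranged from 2.27 to 2.64 for tgm1l4, 0.57 to 0.66 for elovl7a and -0.73 to -0.63 for anxa1a. The difference of rhcgl1 ranged from -1.81 to -1.26. Exact permutation tests with a pool left out gave p of 0.0286 to 0.0571 for rhcgl1 and adjusted p of 0.0286 to 0.0571 for the ratio of elovl7a to elovl7b, whose log2 difference ranged from -0.44 to -0.28; the other 5 ratios kept an adjusted p of 0.0343 or lower.

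Deviations of same-numbered pools from their group means correlated at 0.01, 0.11, -0.24 and -0.11, so the numbers were not taken to pair the samples. With a replicate block 531 genes were called, and tgm1l4 was at 2.48, elovl7a at 0.61 (adjusted p = 0.0402) and anxa1a at -0.69 (adjusted p = 0.0298; edgeR quasi-likelihood test). With 17 and 2 reads in the groups, low counts limit what can be said of rhcgl1.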

Other observations

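Keratin and claudin genes of the table were looked at by name after the values were seen, since none of them was on the lists. The keratin gene krt18a.2 (ENSDARG00000058332) had 7.40 ± 3.58 normalized counts in wild type and rose to 31.9 ± 4.30 in the mutants (n = 4 per group, SD), with a log2 fold change of 2.08 ± 0.31 (SE) and an edgeR adjusted p of 0.00385. The keratin gene krt99 (ENSDARG00000019365) had 82.8, 75.6, 52.0 and 59.8 normalized counts in wild-type pools 1 to 4 and 36.7, 38.5, 41.4 and 38.1 in mutant pools 1 to 4. Like tgm1l4, krt99 was higher in wild-type pools 1 and 2 than in 3 and 4, but its mutant pools lay below all wild-type pools. The same split of the wild-type pools, in either direction, was seen in other genes named above. The log2 fold change of krt99, -0.80 ± 0.19, did not pass (edgeR, adjusted p = 0.0533), and the call depended on the scale, the test and the adjustment. It was called with RLE (-1.31, adjusted p = 0.00151), TMM (-1.18, adjusted p = 0.00462), no offset between the groups (-1.03, adjusted p = 0.0135), no count filter (adjusted p = 0.0472) and DESeq2 (adjusted p = 0.0344). Adjusted over the listed genes alone, it was also called (edgeR, adjusted p = 0.00223). The authors' own adjusted p was 0.00532. With the replicate block the adjusted p was 0.177, and with each pool left out the adjusted p lay between 0.0325 and 0.161. The tight junction gene cldng was too low to test, with 3.68 to 5.12 normalized counts in wild type and 6.36 to 17.4 in the mutants.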
